A study of Mus musculus with 14 samples.

Results

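Proteasome subunit genes were followed in peritoneal B-1a cells of mice labelled Bmi1 knockout (KO) and of mice labelled wild type (WT). The genes were taken by name: every array probe that was not a control and whose gene name began with Psma, Psmb, Psmc, Psmd, Psme, Psmf or Psmg and a number. This rule took 62 probes under 49 of the 34821 gene names on the array. Psmc3ip, a meiotic homologue-pairing factor that shares the letters but is not a subunit, was set aside. The remaining 48 genes, read by 61 probes, were 16 genes of the 20S core, 3 immunoproteasome subunits, 20 genes of the 19S regulatory particle and 9 genes for activators, an inhibitor and assembly chaperones. A gene with several probes was represented by whichever probe averaged highest across the arrays. Of the 48 genes, 46 passed the filter for low signal and were tested among 20407 genes. The others were Psma8, the alpha subunit of testis, and Psmb11, the catalytic subunit of thymic cortical epithelium. Each was well above background on 0 KO arrays and 1 WT array.

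The Bmi1 KO group held 7 samples and the WT group 7 samples, each on its own single-colour Agilent mouse array. They came from 2 sets of experiments, with 3 samples of each genotype in set 1 and 4 of each in set 2. The labels name no treatment. Strain, age, the form of the Bmi1 allele and the cells in which it was deleted were not given in the labels. Nor do they state that each sample was a separate animal. The p-values therefore measure only the spread between these arrays, which may be technical, and precision is limited by their number.

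The proteasome is the protease that degrades most ubiquitin-tagged proteins in the cytosol and nucleus. Its 20S core is a barrel of stacked alpha and beta rings, with the proteolytic sites on the beta subunits Psmb5 (chymotrypsin-like), Psmb6 (caspase-like) and Psmb7 (trypsin-like) facing the inside. The 19S particle caps the barrel: its lid and ubiquitin receptors bind and strip the tagged protein, and its ring of ATPases unfolds it and feeds it in. Lymphocytes and interferon-treated cells replace the standard catalytic subunits with Psmb8, Psmb9 and Psmb10, giving the immunoproteasome, which alters the peptides offered on MHC class I. B-1a cells, a CD5-bearing class of B lymphocyte that lives mainly in body cavities, make natural antibodies, and Bmi1 belongs to a Polycomb complex that keeps developmental genes silent.

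The catalytic pairs are related in sequence, so the bases that read each of them are shown first. These are the central 30 bases (16 to 45) of each 60-base probe, in mm9 coordinates of the whole probe, 5′ to 3′. The longest run of bases shared by the probes of a pair was 5 for Psmb8 and Psmb5, 5 for Psmb9 and Psmb6 and 6 for Psmb10 and Psmb7.
Psmb5 (chr14:55232957-55233016, minus strand): tctaggtgggtctccatggctataataaat
Psmb8 (chr17:34337771-34337830, plus strand): aggcctacgaccttggccgcagagctattg
Psmb6 (chr11:70341093-70341152, plus strand): ggatggtccataccgacgcagaagctaata
Psmb9 (chr17:34319174-34319233, minus strand): accatcgagtcatcctgggagatgagctgc
Psmb7 (chr2:38468966-38489385, minus strand): gttctggctccttggcagcaatggctgtgt
Psmb10 (chr8:108459677-108459736, minus strand): aactgtgcaggccatggaggtggaatgaag
The Psmb7 probe covers 20420 bases of genome, since it crosses a splice junction, and each of the others lies in 60 consecutive bases.

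Signal was weaker on some arrays. Between 20.6% and 56.6% of non-control spots were well above background on KO arrays, against 43.7% to 63.1% on WT arrays. The 4 arrays under 40% were all KO (set 1 replicate 4 and set 2 replicates 1, 2 and 3) and are called the dim KO arrays here. On chromosome 2 (mm9) a pair of probes read Bmi1, neither of them lower on arrays labelled KO. The probe at 18607531 to 18607590 ranged from -1.57 to 3.78 on KO arrays and from -3.12 to 2.09 on WT arrays, and the probe at 18607987 to 18608046 from -3.15 to 2.62 on KO arrays and from -5.32 to -2.19 on WT arrays. KO minus WT was 1.09 (SE 0.87) for the first probe and 3.74 (SE 0.85) for the other, which was well above background on 5 KO and 3 WT arrays. Since the labels do not give the deleted stretch of Bmi1, these probes cannot check the genotypes. The B cell genes Cd79a, Cd79b, Ms4a1 and Pax5 were well above background on all 14 arrays, and Cd5, which marks B-1a cells, on 3 KO and 6 WT arrays. Of 6 macrophage markers, 3 to 5 were well above background on KO arrays and 4 to 6 on WT arrays, with a summed log2 level of 3.25 to 9.25 on KO arrays and 3.67 to 7.41 on WT arrays. Of 5 T cell markers the counts were 2 to 5 on KO and 3 to 5 on WT arrays, with a summed level of 0.79 to 4.47 on KO and 0.71 to 2.89 on WT arrays. Of the neutrophil markers, S100a8 was well above background on 0 arrays and Ly6g on 7 KO and 7 WT arrays. Of the other lists, 0 to 3 of 4 mast cell markers were seen on KO and 1 to 2 on WT arrays, 1 to 3 of 4 neutrophil markers on either, 0 to 2 of 2 natural killer cell markers on KO and 0 to 1 on WT arrays, and 1 to 4 of 4 plasma cell markers on KO and 2 to 3 on WT arrays. The part of these markers in the results below was not tested.

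No proteasome gene passed the threshold of 0.05 for the adjusted p between Bmi1 KO and WT. Levels are log2 of the processed intensity relative to the array's 75th percentile, and the test was limma with the set as a covariate and Benjamini-Hochberg adjustment over all genes. Among all genes tested, 0.0049% were called higher and 0.0196% lower. At an unadjusted p under 0.05, 6 of the 46 proteasome genes were higher (Psma1, Psmb8, Psmc4, Psmd6, Psmd8 and Psme1), beside 10.1% of all genes. Psmf1 alone was lower at that level, beside 4.23% of all genes. The smallest adjusted p was 0.317, for Psmd8. Both counts lie near those background shares.

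KO minus WT was above 0 for 37 of 46 proteasome genes, beside 65.2% of all genes. The median difference over all genes was 0.47, a shift of the whole table, and 34 of the 46 lay above it, beside 50% of all genes by construction. Without the 4 dim KO arrays 24 of 46 were above 0, beside 45.5% of all genes, and 26 of 46 lay above the all-gene median. When arrays were instead scaled to the probes well above background on every array, the median over all genes became -0.87 and the proteasome genes with a difference above 0 became 20 of 46, beside 16.8% of all genes. At an unadjusted p under 0.05 that scaling gave 0 proteasome genes higher, beside 0.887% of all genes, and 4 lower, beside 17% of all genes. Relative to the all-gene median of that scaling, 34 of 46 lay above. That count could not change, since each scaling subtracts a single value from all genes of an array. The direction of the raw differences thus depends on the scaling, and class medians below are given relative to all genes. In bulk samples, fewer cells of a type and less RNA per cell cannot be told apart.

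**Figure D1:**
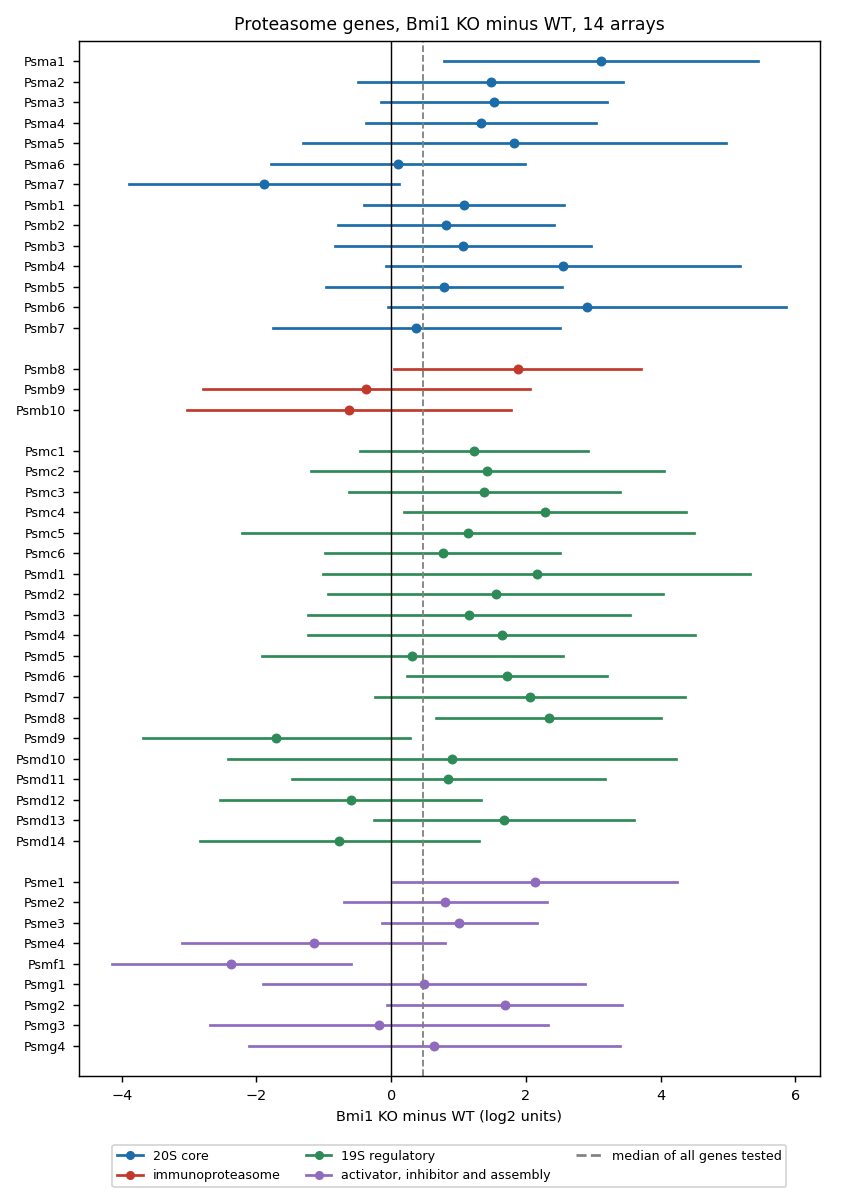
Bmi1 KO minus WT difference (horizontal axis, log2 units) of the 46 tested proteasome genes over 14 arrays, with 95% confidence intervals as bars and colours for the 4 classes; the dashed line is the median of all genes tested, 0.47. Most points of the 20S core and the 19S particle lie right of the dashed line, and 7 intervals exclude 0.

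Relative to all genes, the median difference was 0.75 for 14 tested 20S core genes and 0.84 for 20 genes of the 19S particle. It was 0.17 for the 9 activator, inhibitor and assembly genes and -0.84 for the 3 immunoproteasome genes. Without the 4 dim KO arrays these became 0.41, 0.52, -0.18 and -0.07. By limma 0 of the 46 genes then passed the threshold, beside 0% of all genes called higher and 0.0049% called lower. At an unadjusted p under 0.05, 3 of the 46 genes (Psma6, Psmc1 and Psmg1) were higher, beside 1.91% of all genes, and 0 were lower, beside 3.79%. Those 3 were not among the 6 named above, so the list of leading genes changed with the dim arrays.

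In the 20S core, 13 of 14 differences were above 0, from -1.89 for Psma7 to 3.11 for Psma1. The alpha ring, which forms the gate of the barrel, had a median of 1.01 relative to all genes over 7 genes, and the beta ring, which holds the proteolytic sites, 0.60 over 7 genes. Psma1, an alpha ring subunit, had levels of 2.18 at the lowest, 5.23 at the median and 8.78 at the highest on KO arrays, against -2.88, 2.68 and 4.01 on WT arrays. Of the 7 KO arrays, 5 lay above every WT array, and the groups overlapped. The difference was 3.11 (SE 1.10, limma adjusted p = 0.324). It shrank to 0.93 (SE 1.23, adjusted p = 0.9998) without the dim KO arrays.

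Psma7, another alpha ring subunit, had a difference below 0. Its levels were -3.27, 0.30 and 4.24 (lowest, median, highest) on KO arrays, against 1.36, 2.07 and 3.38 on WT arrays. It was not well above background on 3 KO arrays, the dim ones of set 2, while the KO arrays set 1 replicates 3 and 4 read higher than every WT array. The difference was -1.89 (SE 0.95, limma adjusted p = 0.351), and -0.36 (SE 0.71) without the dim KO arrays.

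Psmb4, a beta subunit without a proteolytic site, had KO levels of -0.64, 4.24 and 9.09, against WT levels of -0.28, 0.61 and 4.88. KO set 2 replicate 2 was the highest array, and the groups overlapped. The difference was 2.55 (SE 1.24, limma adjusted p = 0.348), and 0.87 (SE 0.94) without the dim KO arrays. Relative to all genes it was 2.08, and 1.11 without KO set 2 replicate 2 alone. Among the other structural core subunits, the difference ran from 0.10 for Psma6 to 1.83 for Psma5, which read -0.06 without the dim KO arrays.

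None of the standard catalytic subunits passed the threshold, and the differences between them were not tested. Psmb6 levels were -3.26, 3.31 and 7.72 on KO arrays, against -1.23, 0.69 and 3.48 on WT arrays. KO set 2 replicate 3 was both the lowest array and not well above background, and 3 KO arrays lay above every WT array. The difference was 2.91 (SE 1.39, limma adjusted p = 0.348), and 1.07 (SE 0.73) without the dim KO arrays. Psmb5 levels were -2.62, 0.49 and 3.42 on KO arrays, against -2.40, -0.89 and 1.83 on WT arrays, a difference of 0.79 (SE 0.83, adjusted p = 0.625). Psmb7 levels were -0.90, 4.13 and 7.02 on KO arrays, against 2.97, 3.94 and 4.69 on WT arrays, a difference of 0.37 (SE 1.01, adjusted p = 0.865). For both genes 1 KO array read below every WT array and at least 1 above, so the ranges of the groups overlapped throughout. Without the dim KO arrays the Psmb5 difference relative to all genes turned to -0.44, against 0.32 with them.

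None of the 3 immunoproteasome subunits passed the threshold either, and they were not tested against each other. Psmb8, which takes the place of Psmb5, had levels of 3.95, 5.70 and 10.18 on KO arrays, against 3.83, 4.37 and 5.47 on WT arrays. It was well above background on all 14 arrays, and 4 KO arrays, each of them dim, lay above every WT array. The difference was 1.88 (SE 0.86, limma adjusted p = 0.348), and it was -0.13 (SE 0.48) without those 4 arrays.

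Psmb9, which takes the place of Psmb6, split the KO arrays. Its KO levels were -3.13, 4.31 and 5.53, against WT levels of 0.94, 3.05 and 5.02. On KO set 2 replicates 1 and 2 it was not well above background, at -3.13 and -1.68, while the other 5 KO arrays lay between 4.27 and 5.53. The difference was -0.37 (SE 1.15, limma adjusted p = 0.884), and 1.06 (SE 0.68, adjusted p = 0.9998) without the dim KO arrays. Leaving out KO set 2 replicate 1 alone brought the difference relative to all genes to 0.07, against -0.84 with it.

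Psmb10, which takes the place of Psmb7, had KO levels of -1.77, -1.38 and 4.66, against WT levels of -2.34, -0.04 and 3.65. It was well above background on 4 KO and 7 WT arrays, and the groups overlapped over almost the whole range. The difference was -0.62 (SE 1.14, limma adjusted p = 0.795).

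**Figure D2:**
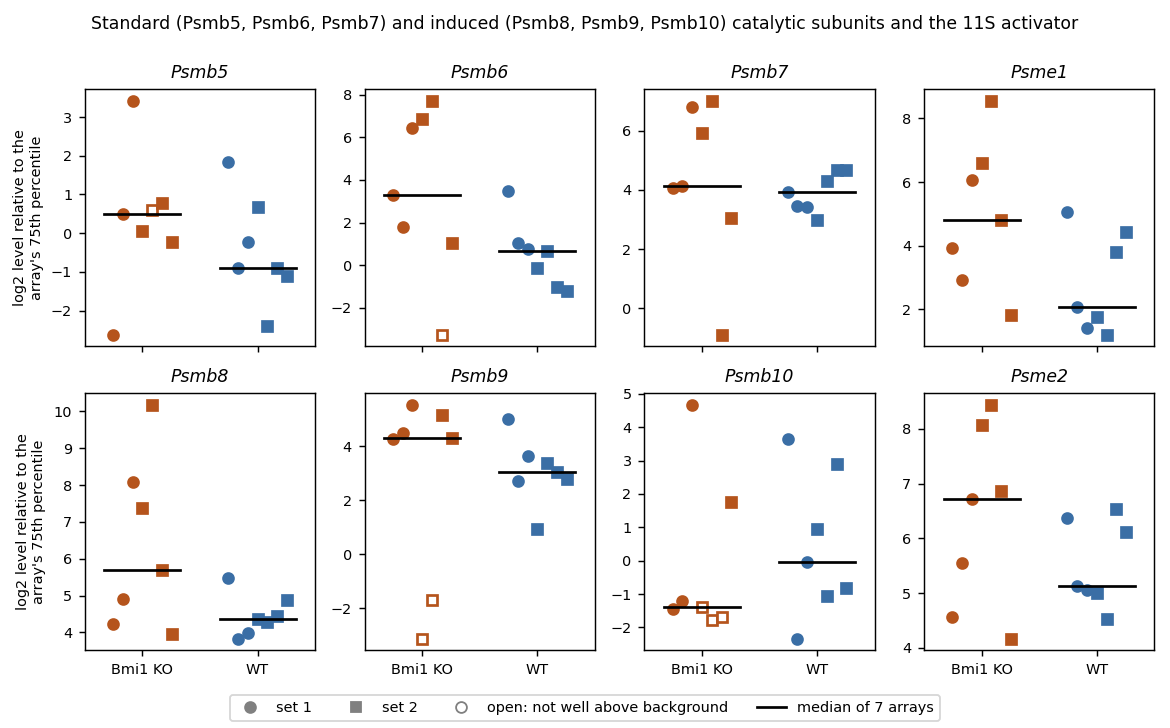
Level of each catalytic subunit and of the 11S activator pair (vertical axis, log2 relative to the array's 75th percentile; each panel has its own scale) on 7 Bmi1 KO arrays, left in each panel, and 7 WT arrays, right. Circles are set 1 and squares set 2, open symbols are arrays where the gene was not well above background, and black lines are medians. Psmb8 reads above every WT array on 4 KO arrays, while Psmb9 was not well above background on 2 KO arrays.

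The induced subunit was also set against its standard partner within each array, which removes the scaling of the array. Only changes of this difference between arrays can be read, since the 2 probes of a pair are not on a common scale. Psmb8 minus Psmb5 averaged 5.99 ± 2.00 on KO arrays and 4.90 ± 1.17 on WT arrays (SD, n = 7 each). Psmb9 minus Psmb6 averaged -0.72 ± 6.77 on KO arrays and 2.56 ± 1.20 on WT arrays (SD, n = 7 each). Psmb10 minus Psmb7 averaged -4.46 ± 3.095 on KO arrays and -3.46 ± 2.16 on WT arrays (SD, n = 7 each). Each of these changes was smaller than the SD between KO arrays. The widest SD, that of the Psmb9 pair on KO arrays, rests on arrays where 1 gene of the pair was not well above background and has no measured level: Psmb9 on KO set 2 replicates 1 and 2, and Psmb6 on replicate 3 of that set. On the other 4 KO arrays the pair read -0.93 to 3.25, against 1.06 to 4.07 on WT arrays. The other pairs also include genes without a measured level. Psmb10 was not well above background on KO set 2 replicates 1, 2 and 3, nor Psmb5 on replicate 2 of that set. That replicate 2 gave the highest Psmb8 minus Psmb5 value, 9.58. Without the dim KO arrays the KO means differed from the WT means by 0.25 for the Psmb8 pair, -0.27 for the Psmb9 pair and -0.59 for the Psmb10 pair.

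The 11S activator made of Psme1 and Psme2 opens the gate of the core and is induced by interferon gamma together with the immunoproteasome. Psme1 levels were 1.82, 4.81 and 8.55 on KO arrays, against 1.21, 2.08 and 5.05 on WT arrays. Of the KO arrays, 3 dim ones lay above every WT array. The difference was 2.14 (SE 0.99, limma adjusted p = 0.348), and -0.05 (SE 0.98) without the dim arrays. Psme2 levels were 4.17, 6.71 and 8.44 on KO arrays, against 4.52, 5.13 and 6.53 on WT arrays. The 4 dim KO arrays held the 4 highest values. The difference was 0.80 (SE 0.71, limma adjusted p = 0.554), and relative to all genes it was 0.34 with the dim arrays and -0.77 without them.

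In the 19S particle, 17 of 20 differences were above 0 and 16 lay above the all-gene median. All 6 ATPases of the base were above that median, from 0.76 for Psmc6 to 2.28 for Psmc4 before its subtraction. Psmc4 levels were 3.15, 5.83 and 9.88 on KO arrays, against 2.48, 3.86 and 5.36 on WT arrays, with 4 KO arrays above every WT array. The difference was 2.28 (SE 0.99, limma adjusted p = 0.348), and 0.51 (SE 0.65) without the dim KO arrays. Psmc1 levels were -2.73, 1.43 and 4.08 on KO arrays, against -0.94, -0.26 and 1.21 on WT arrays. Here 5 KO arrays lay above every WT array, and on KO set 2 replicates 2 and 3 Psmc1 was not well above background. The difference was 1.23 (SE 0.80, limma adjusted p = 0.422), and 1.57 (SE 0.55, adjusted p = 0.797) without the dim KO arrays.

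Among the 14 non-ATPase genes, which include the lid, the ubiquitin receptors and the base chaperones, the differences ran from -1.70 for Psmd9 to 2.34 for Psmd8. Psmd8, a lid subunit, had levels of 2.08, 3.70 and 5.96 on KO arrays, against 0.31, 1.26 and 3.46 on WT arrays. The 3 dim KO arrays of set 2 read 5.64 to 5.96, and with set 1 replicate 3 they lay above every WT array. The difference was 2.34 (SE 0.79, limma adjusted p = 0.317), and 0.65 (SE 0.66, adjusted p = 0.9998) without the dim KO arrays. It was 0.53 in set 1 (SE 1.07) and 3.69 in set 2 (SE 0.93, adjusted p = 0.315), and the change between sets had an adjusted p of 0.872.

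Psmd6, also in the lid, had levels of 0.11, 3.19 and 3.71 on KO arrays, against -0.31, 0.52 and 1.42 on WT arrays. It was well above background on all 14 arrays, and 5 KO arrays, the 4 dim ones and set 1 replicate 3, exceeded every WT array. The difference was 1.72 (SE 0.70, limma adjusted p = 0.348), and 0.10 (SE 0.60) without the dim KO arrays. Psmd12, a lid subunit as well, had levels of -1.59, 2.93 and 6.62 on KO arrays, against 1.72, 2.73 and 4.44 on WT arrays. The 3 dim KO arrays of set 2 gave the lowest readings, on 2 of them not well above background, and 2 KO arrays of set 1 were above every WT array. The difference was -0.60 (SE 0.91, limma adjusted p = 0.751), and 0.60 (SE 0.67) without the dim KO arrays. The remaining lid, scaffold and receptor genes lay between -0.77 for Psmd14, the lid's deubiquitinase, and 2.16 for Psmd1, a scaffold of the base. Without the dim KO arrays Psmd14 read -0.34 and Psmd1 -1.32. Psmd4, which encodes a ubiquitin receptor, differed by 1.64 (SE 1.36).

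The base chaperones Psmd5, Psmd9 and Psmd10, which help to assemble the ATPase ring and leave the finished particle, differed by 0.31, -1.70 and 0.91. The Psmd9 value rests on the choice of probe. Its main probe differed by -1.70 (SE 0.93, limma adjusted p = 0.366) and the other by 1.09, and over the 14 arrays the correlation between them was -0.64. On KO set 2 replicate 1 the main probe read -3.03 and the other 3.38. The main probe was not well above background on KO set 2 replicates 1 and 2, which the correlation includes. The other probe was well above background on 7 KO and 7 WT arrays. The central 30 bases of both probes, 5′ to 3′ in mm9, are given because they read different parts of the gene.
Psmd9 main probe (chr5:123698524-123698583, plus strand): tacgtcttgtgcaaattaggccatagcctg
Psmd9 other probe (chr5:123691881-123691940, plus strand): tccagtcagtgcagaacgtgggcactgtgg
Of the 12 further probes of proteasome genes that passed the filter, 10 had the sign of the main probe. The exceptions were Psmd9 and the Psme2 probe at 56209736 on chromosome 14, which differed by -0.03. The correlation with the main probe over the 14 arrays ran from -0.64 to 0.99 and was close to 0 for Psmb9 (-0.09) and Psme4 (-0.06).

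The remaining activators and the inhibitor read higher and lower. Psme3, the nuclear 11S activator, differed by 1.01 (SE 0.54). Psme4, the nuclear activator PA200, had levels of -3.32, -1.37 and 3.64 on KO arrays, against -1.62, 0.88 and 2.84 on WT arrays. It was well above background on 4 KO and 7 WT arrays. The difference was -1.15 (SE 0.92, limma adjusted p = 0.509), and -0.25 (SE 0.99) without the dim KO arrays. The other Psme4 probe differed by -2.17 (SE 0.91). Psmf1, the inhibitor PI31, had levels of -3.12, -1.74 and 1.82 on KO arrays, against -0.82, 0.67 and 2.55 on WT arrays. Here 5 KO arrays lay below every WT array, 3 of them with Psmf1 not well above background. The difference was -2.37 (SE 0.83, limma adjusted p = 0.324), with -2.39 in set 1 and -2.35 in set 2, and -0.89 (SE 1.003, adjusted p = 0.9998) without the dim KO arrays.

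The assembly chaperones Psmg1 to Psmg4, which build the alpha ring, differed by 0.48, 1.68, -0.18 and 0.64. The size of the Psmg1 value depends on the probe: its other probe differed by 1.93 (SE 0.76). Psmg2 levels were -3.31, -0.22 and 2.25 on KO arrays, against -3.99, -2.67 and 0.53 on WT arrays, with only KO set 1 replicate 4 above every WT array. Its difference of 1.68 had an SE of 0.83 and a limma adjusted p of 0.348. Psmg4 levels were -3.27, -1.67 and 4.05 on KO arrays, against -5.34, -1.62 and 1.95 on WT arrays, an overlap over nearly the whole range. Its difference had an SE of 1.30 and a limma adjusted p of 0.818.

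Detection was lower on particular KO arrays, among proteasome genes and among all genes tested. The number of the 46 genes well above background was 44, 46 and 44 on KO arrays of set 1 and 28, 28, 27 and 43 on KO arrays of set 2, against 46, 43 and 45 on WT arrays of set 1 and 42, 43, 43 and 39 on WT arrays of set 2. The mean was 37.1 ± 8.91 on KO arrays and 43.0 ± 2.24 on WT arrays (SD, n = 7 each). As a mean share this was 80.7% on KO and 93.5% on WT arrays, beside 71.6% and 88.7% of all genes tested. On KO set 2 replicates 1, 2 and 3 the shares were 60.9%, 60.9% and 58.7%, beside 58.7%, 42.4% and 60.8% of all genes. Set 1 replicate 4, although dim over all genes, kept 44 of 46.

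The loss was uneven among genes that WT cells always showed. Of 33 proteasome genes well above background on all 7 WT arrays, 12 (36.4%) were not so on KO set 2 replicate 1, 11 (33.3%) on replicate 2 and 9 (27.3%) on replicate 3. The shares among 12274 such genes of the whole array were 22.1%, 40.1% and 22.4%. On the other KO arrays 0 of the 33 were lost, beside 0.497% to 13.5% of such genes. Psma7, Psmb10, Psme4 and Psmf1 were lost on all 3 of those arrays. Psma6, Psmb9, Psmc1, Psmc2, Psmd9 and Psmd12 were lost on 2 arrays, 8 genes on 1 array and 15 on none. The genes never lost include Psmb8, Psme1, Psme2, Psme3, Psmc3, Psmc4, Psmd6, Psmd8 and Psmd13.

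KO set 2 replicate 2 was often extreme: it was the highest of the 14 arrays for 23 of the 46 genes, and KO set 1 replicate 4 for 11. The share of all genes that were highest there was not counted, so these counts cannot be read as particular to proteasome genes. Over all genes, the SD of levels within those arrays was 3.93 and 4.17, against 2.62 to 3.58 on WT arrays. KO set 2 replicate 2 had the fewest spots above background of all arrays, 20.6%. The median 20S core level was 7.31 on that array, 5.52 on KO set 1 replicate 4, 4.87 on KO set 2 replicate 1 and 0.70 on KO set 2 replicate 3, against 1.11 to 3.56 on WT arrays. Of the 4 dim KO arrays, 3 thus lay above the WT range and 1 below it. KO set 1 replicate 2, which was not dim, read 3.71, also above that range. The remaining KO arrays, at 3.50 (set 1 replicate 3) and 2.19 (set 2 replicate 4), lay within it. The part of weak signal in these readings was not tested.

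**Figure D3:**
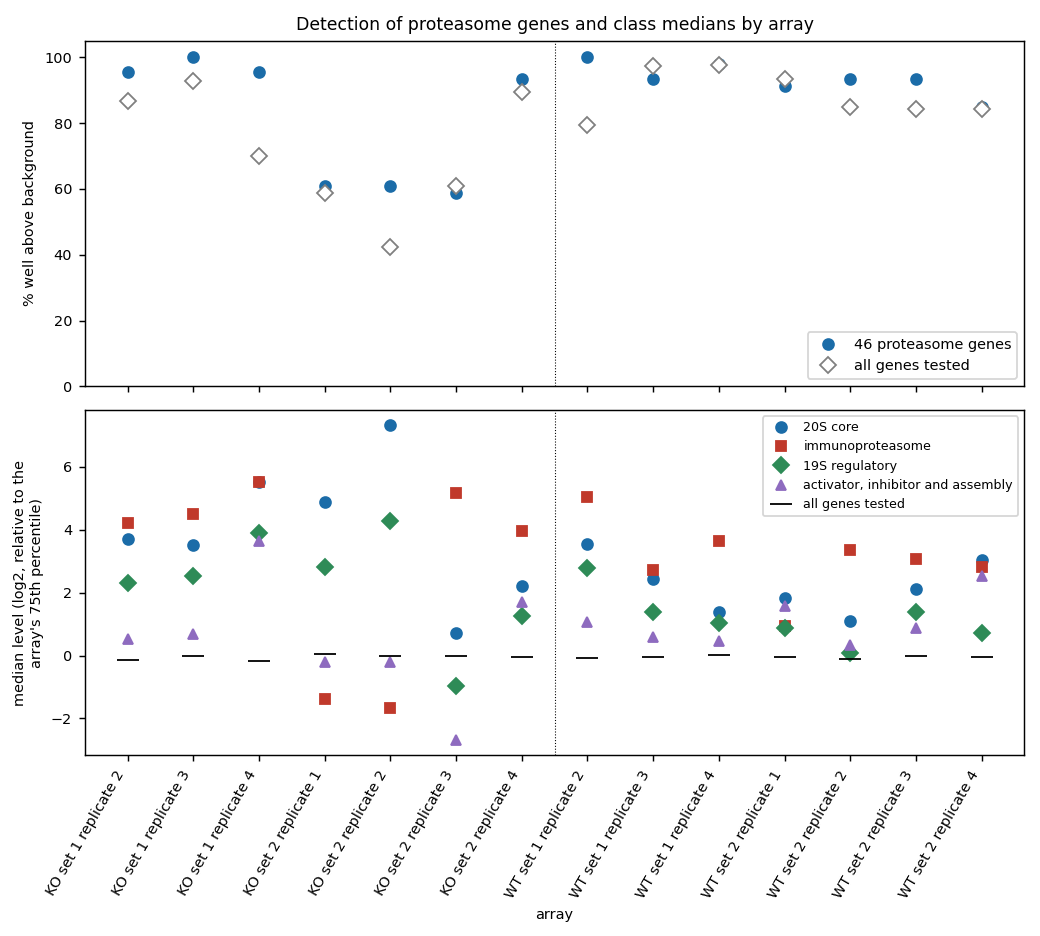
Upper panel: share (%) of 46 proteasome genes and of 20407 tested genes well above background on each array; lower panel: median log2 level of each class and of all genes, relative to the array's 75th percentile. The 7 KO arrays are left of the dotted line and the 7 WT arrays right of it; KO set 2 replicates 1 to 3 have the lowest shares of proteasome genes, 58.7% to 60.9%.

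The spread between arrays was wider in KO. The median SD of a proteasome gene was 2.46 on KO arrays and 1.27 on WT arrays, beside 1.83 on KO and 1.03 on WT arrays over all genes. A larger SD in KO was seen for 42 of 46 proteasome genes and for 86.8% of all genes.

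Proteasome genes varied together over the arrays to different degrees by class. Over the 7 WT arrays the mean correlation between pairs of proteasome genes was 0.26, beside 0.03 between pairs of all genes. Over the 7 KO arrays it was 0.18, beside 0.14 for all genes. Pairs within the 20S core had a mean correlation of 0.39 on KO arrays and 0.29 on WT arrays, pairs within the 19S particle 0.09 on KO arrays and 0.26 on WT arrays, and the 3 immunoproteasome genes -0.04 on KO arrays and 0.50 on WT arrays. These are descriptions, since all genes share the arrays, their depth and their scaling. The KO values also include readings not well above background: Psmb9 was well above background on 5 of 7 KO arrays and Psmb10 on 4.

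The 2 sets were compared next, because each holds both genotypes. The difference was above 0 for 40 of 46 proteasome genes in set 1, beside 53.6% of all genes, and for 33 of 46 in set 2, beside 72% of all genes. In set 1 no proteasome gene passed the threshold by limma, where 0.0098% of all genes were called lower, and at an unadjusted p under 0.05 only Psmg2 was higher, beside 1.23% of all genes, and 0 were lower, beside 4.89%. In set 2 none passed either, beside 0% of all genes called higher and 0.0049% called lower. At an unadjusted p under 0.05, 4 were higher there (13.2% of all genes) and 3 lower (2.53% of all genes). In set 1, 8 genes had every KO array above every WT array, beside 5.47% of all genes: Psma3, Psma6, Psmb7, Psmc1, Psmc6, Psmd2, Psmd7 and Psme4. Of these Psmd7 was not well above background on 1 WT array of that set. Over both sets it was well above background on 4 KO and 3 WT arrays. It thus passed the filter only through the KO group, so its separation cannot be read as a result. Psmd14 had every KO array of set 1 below every WT array, beside 6.44%. In set 2 Psma7 read lower on every KO array than on every WT array, beside 1.18%, but was not well above background on 3 of those 4 KO arrays, where it has no measured order. In that set 0 genes had every KO array above, beside 3.72%. Over all 14 arrays 0 proteasome genes were separated in either direction, beside 0.143% of all genes higher and 0.0934% lower.

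The class medians relative to all genes were 1.30 in set 1 and 0.71 in set 2 for the 20S core, and 1.07 and 0.31 for the 19S particle. For the immunoproteasome they were 0.87 in set 1 and -2.11 in set 2, and for activators, inhibitor and assembly genes 1.36 and -0.86. The set 2 immunoproteasome median is the value of Psmb10 alone. Before subtraction of the all-gene median, Psmb8 differed by 2.30 in set 2, Psmb9 by -1.38 and Psmb10 by -1.27. Psmb10 was not well above background on KO set 2 replicates 1, 2 and 3, nor Psmb9 on replicates 1 and 2. A change of the difference between sets passed the threshold for 0 of 46 genes by limma, beside 0% of all genes in either direction. At an unadjusted p under 0.05 there were 4, of which 1 higher and 3 lower in set 2, beside 3.64% and 1.21% of all genes. The smallest p belonged to Psma7, at 1.32 in set 1 (SE 1.01) and -4.30 in set 2 (SE 0.87), with an adjusted p of 0.872 for the change between sets. Psme4 differed by 1.73 in set 1 (SE 1.06) and -3.31 in set 2 (SE 0.92), and Psmd12 by 1.72 (SE 1.20) and -2.35 (SE 1.04), both with that same adjusted p. Each of the 3 was dim, not well above background, on 2 or more dim KO arrays of set 2. On slide 2 alone, which held 4 KO and 2 WT arrays of set 2, the class medians were 0.47 for the core, 0.13 for the 19S particle, -1.74 for the immunoproteasome and -0.19 for the other genes. The same KO readings of Psmb9 and Psmb10 enter that immunoproteasome value.

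**Figure D4:**
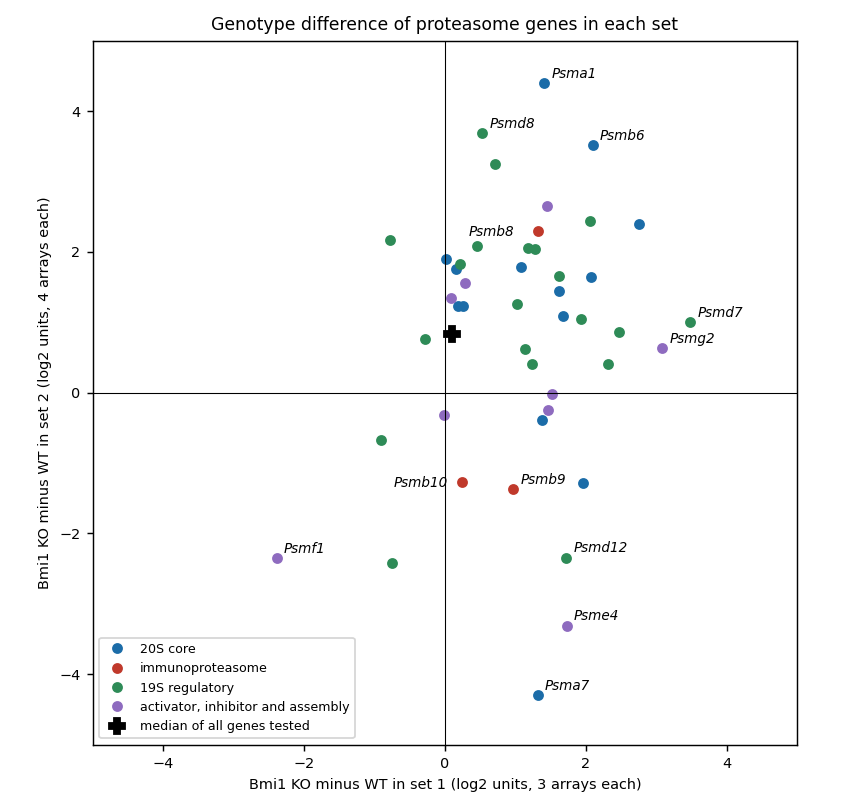
Bmi1 KO minus WT difference of each tested proteasome gene in set 1 (horizontal axis, log2 units, 3 arrays each) and in set 2 (vertical axis, log2 units, 4 arrays each), coloured by class; the black cross is the median of all genes. Most points lie at the upper right, above 0 in both sets, while Psma7, Psme4 and Psmd12 are above 0 in set 1 and below 0 in set 2.

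The genes around the proteasome were read from a list of 38, of which 37 were on the array and 34 were tested. None passed the threshold by limma, and at an unadjusted p under 0.05 3 of the 34 were higher, beside 10.1% of all genes, and 1 was lower, beside 4.23%. The median difference relative to all genes was 0.06. Pomp, the maturation factor of the 20S core, had levels of 2.44, 5.11 and 9.64 on KO arrays, against 1.46, 2.86 and 4.57 on WT arrays. Its difference was 2.84 (SE 0.96, limma adjusted p = 0.317), the largest of the list, and relative to all genes it was 2.38 with the dim KO arrays and 0.95 without them. Rps27a, a ubiquitin fusion gene, differed by 1.64 (SE 0.68, adjusted p = 0.348), or relative to all genes by 1.18 with the dim KO arrays and 0.17 without them. AI314180, the array's name for a scaffold protein of the proteasome, differed by -2.35 (SE 1.002, adjusted p = 0.348). Relative to all genes it was -2.81 and turned to 0.25 without the dim KO arrays. AI314180 was well above background on 4 KO and 7 WT arrays.

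Among 6 tested regulators of proteasome transcription, 1 lay above the all-gene median, and their median relative to all genes was -0.85, turning to 0.30 without the dim KO arrays. Nfe2l1, which drives proteasome genes when the proteasome is inhibited, differed by -1.74 (SE 1.28, limma adjusted p = 0.474), and relative to all genes by -2.20 with the dim KO arrays and -0.17 without them. Nfe2l1 was well above background on 5 KO and 7 WT arrays. Tap1, the peptide transporter subunit next to Psmb9 in the MHC, had levels of -5.54, 0.26 and 2.99 on KO arrays, against 0.66, 2.35 and 3.13 on WT arrays. Its difference was -2.44 (SE 1.15, limma adjusted p = 0.348), and relative to all genes -2.90 with the dim KO arrays and -2.12 without them. It was well above background on 4 KO and 7 WT arrays.

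The promoters of 4 catalytic genes are shown because each holds a match to 1 of the 4 motifs searched, while Psmb10 held none and Psmb7 was not matched. Sequences of 250 bases before the gene start came from RefSeq (GRCm38.p6), with 40 of the 48 genes matched. The capitals mark matches to TGACNNNGC, the antioxidant response element that Nfe2l1 and Nfe2l2 bind (Psmb5 and Psmb6), TTCNNNGAA, the gamma-activated site (Psmb8), and the CCAAT box, here on the other strand as ATTGG (Psmb9), each searched on both strands.
Psmb5 (chr14:54617996-54618245, minus strand): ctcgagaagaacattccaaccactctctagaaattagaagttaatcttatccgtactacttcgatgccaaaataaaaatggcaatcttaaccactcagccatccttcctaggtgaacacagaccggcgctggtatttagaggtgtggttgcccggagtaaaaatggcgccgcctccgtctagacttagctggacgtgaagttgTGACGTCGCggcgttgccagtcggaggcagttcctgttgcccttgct
Psmb6 (chr11:70525107-70525356, plus strand): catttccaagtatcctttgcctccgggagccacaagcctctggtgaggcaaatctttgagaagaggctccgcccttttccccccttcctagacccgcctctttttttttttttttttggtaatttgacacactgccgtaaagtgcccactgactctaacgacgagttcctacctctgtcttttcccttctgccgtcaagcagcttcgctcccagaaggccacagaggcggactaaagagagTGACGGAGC
Psmb8 (chr17:34197945-34198194, plus strand): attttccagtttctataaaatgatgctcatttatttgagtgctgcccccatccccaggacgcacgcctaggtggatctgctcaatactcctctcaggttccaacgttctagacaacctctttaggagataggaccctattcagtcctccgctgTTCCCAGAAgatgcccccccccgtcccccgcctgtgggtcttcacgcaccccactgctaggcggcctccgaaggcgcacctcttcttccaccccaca
Psmb9 (chr17:34187331-34187580, minus strand): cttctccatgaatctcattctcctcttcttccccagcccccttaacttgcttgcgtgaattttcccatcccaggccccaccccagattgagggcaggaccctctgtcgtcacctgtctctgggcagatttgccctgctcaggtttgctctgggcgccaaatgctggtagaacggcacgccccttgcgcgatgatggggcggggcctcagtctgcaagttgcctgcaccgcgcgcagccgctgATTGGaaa
The match lay 39 to 47 bases before the start of Psmb5, 1 to 9 before Psmb6, 89 to 97 before Psmb8 and 4 to 8 before Psmb9. The starts of Psmb9 and Tap1 are 226 bases apart on opposite strands.

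Over the 40 matched genes, the antioxidant response element was found in 5 (12.5%; Psmb5, Psmb6, Psmc6, Psmd9 and Psmd12), beside 11.52% of 27025 promoters of the same length. A CCAAT box was found in 14 (35.0%), beside 37.49% of all promoters. The interferon-stimulated element, searched as TTTCNNTTTC, was found in 3 (7.5%), beside 3.46%, and the gamma-activated site in 2 (5.0%), beside 8.13%. A match is a run of letters and not evidence of binding. The 5 genes with the antioxidant response element differed by 0.79, 2.91, 0.76, -1.70 and -0.60 in the order named.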

How the data were processed

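Single-colour Agilent arrays measured peritoneal B-1a cells from 7 Bmi1 KO samples and 7 WT samples. Groups came from the genotype label, and the set from the 2 styles of numbering in the titles. Slide 1 carried all of set 1, slide 2 carried 4 KO and 2 WT arrays of set 2, and slide 3 its other 2 WT arrays, per the file headers. Total RNA came from a column kit and Cy3 labelling from an undisclosed company protocol, per the labels, so amplification is unknown.

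Agilent Feature Extraction 10.7.3.1 gave the spot intensity, and positions refer to mm9, per the file headers. For each spot the authors also deposited a score of 0 or 1 that marks saturation, outliers and signal well above background. The authors' table of log2 values has a median of 3.952 in every column and follows the scanner values (Spearman's rho at least 0.9993), which settles its scale and direction. It is not centred by gene, and its normalization tool was not given in the labels or headers. It served as an alternative.

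Each array's 75th percentile of log2 processed intensity, taken over spots that were not controls, was subtracted from its values. Repeat spots were averaged without outliers, and 0 arrays had saturated spots. Probes had to be well above background on at least 4 of 7 arrays in 1 genotype or the other, which left 29679 probes and 20407 genes. Tests used limma 3.58.1 in R 4.3.3 (lmFit and eBayes, two-sided, Benjamini-Hochberg over all genes), with the set as a covariate. Contrasts within sets used a model with 4 means (genotype by set). The fit was tested on simulated data. Figures used matplotlib 3.10.9.

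The members, classes, lists of neighbouring pathway genes and markers, alternatives and named-gene rule were chosen with earlier results of these data known. The rule gives Psmb5 to Psmb10, Psme1 and Psme2, the 2 members of each subclass with the smallest p, and the 3 with the smallest p for dependence on the set. Some pathway and marker genes are not reported here. Alternatives were other scalings, normexp background correction with an offset of 50, the deposited values, other filters and probe choices, other blocks, leaving out each array, and leaving out the 4 dim KO arrays. Same-numbered KO and WT arrays of a set were compared over genes, after subtracting each gene's mean within its genotype and set. The correlations ran from -0.233 to 0.177, which cannot settle whether the numbers pair the samples.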

Additional observations from a re-analysis of the deposited data

Results flagged for a closer look

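Psma1 on WT set 2 replicate 2 stood apart from the other WT arrays. It read -2.88 on the log2 scale relative to the array's 75th percentile, where the next lowest WT array read 1.41, a gap of 0.623 of the WT range against a critical value of 0.568. Psma1 was not well above background on that array. Without it, the Psma1 difference relative to all genes was 1.85, against 2.65 with it. Levels of 48 groups were checked in this way, and chance flags about 1 in 20, so 1 such array is fewer than chance gives.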

How the results depend on the processing

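No proteasome gene passed the threshold by limma under any of the alternatives run. Leaving out each array in turn, the smallest adjusted p was 0.108. At an unadjusted p under 0.05, 2 of 46 genes were higher without KO set 1 replicate 4, beside 6.68% of all genes, and 11 of 46 without KO set 2 replicate 4, beside 19.8% of all genes. The replicate block gave 0 calls, so that the pairing of numbers changed no call. Relative to all genes its 20S core median of 0.75 and 19S median of 0.84 equal those of the main fit by design. Each number of a set holds a KO and a WT array, so only the p-values could change. Leaving out 1 array, those medians ranged over 0.35 to 1.03 for the core and 0.49 to 1.29 for the 19S particle. They ranged over -1.44 to 0.07 for the immunoproteasome and -0.38 to 0.59 for the other genes. The last median was also below 0 with quantile normalization (-0.17), the deposited values (-0.17) and no filter (-0.10). With only probes above background on all arrays, 16 proteasome genes remained, and the immunoproteasome median was that of Psmb8 alone, 0.81.

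Some named genes changed sign relative to all genes, none of them past the threshold. Psme2 was -0.44 with quantile normalization, -0.091 with normexp, -0.44 with the deposited values, -0.26 with probes above background on all arrays and -0.77 without the dim KO arrays. Psmg4 was -0.14 with quantile normalization, -0.15 with the deposited values, -0.10 with no filter, -0.59 without the dim KO arrays and -0.71 within slide 2. Psmb5 was -0.14 and Psmb7 0.27 with the slide as a block. Without the dim KO arrays Psmb5 was -0.44, Psmb8 -0.068, Psmb9 1.13 and Psmd12 0.66. Within slide 2, an alternative chosen after seeing the data, Psmb5 was -0.50 and Psmc1 -1.18. Leaving out each array, Psmb5 ranged over -0.21 to 0.90, Psmb7 over -0.55 to 0.83, Psmb9 over -1.44 to 0.0702 and Psmg4 over -0.59 to 0.76. The cause was not tested. Weak signal limits what can be read on the dim KO arrays, where a gene not well above background has no measured order.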

Other observations

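Beside the regulators of transcription, 3 lists of genes that serve the proteasome were read. Of 14 ubiquitin and shuttle genes, 8 were above the median of all genes, with a median of 0.11 relative to all genes and -0.17 without the 4 dim KO arrays. Of 8 tested proteasome-bound and assembly factors 5 were above it, with a median of 0.27, and 0.19 without those arrays. Of 6 tested genes of class I peptide supply 4 were above it, with a median of 0.16, which turned to -0.39 without them. The shuttle factor Ubqln4, which carries ubiquitin-tagged proteins to the proteasome, had levels of -5.28, 1.58 and 6.27 on KO arrays, against 1.67, 2.98 and 3.78 on WT arrays. It was well above background on 4 KO and 7 WT arrays. Its difference was -2.58 (SE 1.35, limma adjusted p = 0.358), or relative to all genes -3.04 with the dim KO arrays and -0.94 without them. B2m, the light chain of MHC class I, had levels of 6.22, 6.53 and 9.45 on KO arrays, against 6.17, 6.51 and 7.38 on WT arrays, a difference of 0.73 (SE 0.59, limma adjusted p = 0.511), or relative to all genes 0.27 with the dim KO arrays and -0.22 without them.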
